A study of Drosophila melanogaster with 15 samples.

Results

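The salivary gland was set against the wing imaginal disc in larvae of Drosophila melanogaster at about 18 hours before pupariation. The comparison used 3 salivary gland arrays and 3 wing disc arrays out of 15, chosen by the tissue named in their titles, and gave a difference for 7583 named genes of the 9894 named genes measured in the series. A gene was kept where it had a value on at least 2 of the 3 arrays in both tissues. Both tissues came from the wild-type Canton S strain, whose alleles, stage and handling were shared by all arrays. The labels name no transgene or treatment, and each array held an independent sample of 1 tissue. How many animals made up a sample is not given in the sources used here. Every value is a log2 ratio of tissue RNA, in the dye Cy5, over whole-animal RNA from equally old larvae, in the dye Cy3. Arrays were centred on their medians, so a value of 0 means the median ratio of the array, called here the level of the whole animal. A difference of log2 1 between tissues means a doubling.

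The larval salivary gland is a secretory organ made of large cells that stopped dividing in the embryo. Its cells copy their DNA again and again without mitosis, a cycle called the endocycle, and so build polytene chromosomes. Late in larval life they make glue proteins, rich in mucins, that later fix the pupal case to a surface. The wing disc is a folded epithelium of small diploid cells that still divide at this stage, while transcription factors and secreted signals lay out the future wing and part of the body wall.

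Between 10369 and 13175 rows carried a value on the salivary gland arrays, and between 8409 and 12703 on the wing disc arrays. Across 6410 features measured on all 6 arrays, Pearson correlations were 0.756 to 0.850 among gland arrays, 0.832 to 0.915 among disc arrays and 0.439 to 0.612 between the tissues. Replicate arrays had a median SD of log2 0.318 in gland and log2 0.276 in disc, and with 3 arrays a tissue their number sets the precision. Of 9809 features tested, 1797 (18.3%) passed the test, 812 (8.28%) of them higher and 985 (10.0%) lower in the gland. The test was limma's moderated test with Benjamini-Hochberg adjustment over all features and a threshold of 0.05, and every adjusted p below is from that fit. Of the named genes 1443 (19.0%) passed: 644 (8.49% of those tested) were higher and 799 (10.5%) were lower in the gland than in the disc, with a median difference of 0.01 over all named genes tested. In a dissected tissue, fewer cells of a type and less RNA per cell cannot be told apart.

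The labels were checked against markers of each tissue. All 5 tested gland markers, Sgs1, Sgs5, Eig71Ee, fkh and sage, passed the test as higher in the gland arrays. Of the disc markers, ci and vg passed as higher in the disc arrays, while nub was 0.75 lower in the gland (adjusted p = 0.0882) and dpp was 0.71 higher there (adjusted p = 0.139, n = 2 arrays per tissue). Transcripts of ap and en had values on 1 gland array each and were not tested. On the disc arrays, ap stood at -0.05, -0.12 and 0.35 and en at -0.21 and -0.01, so both lay close to the level of the whole animal.

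The gland product genes Eig71Ee and Sgs5 had the largest differences among named genes measured on all 6 arrays. Each of the 5 measured gland product genes was higher in the gland, by log2 4.78 to 9.01, with a median of 5.96. Eig71Ee, an ecdysone-induced gene of the late salivary gland, had log2 ratios of 5.87, 5.41 and 4.17 on the gland arrays, against -4.02, -3.77 and -3.80 on the disc arrays. The difference was 9.01 (SE 0.41, adjusted p = 1.49e-09), which is a 516-fold higher level. Sgs5, which encodes a glue protein, stood at 5.6, 4.79 and 5.42 in gland and at -2.88, -2.85 and -4.01 in disc. Its relative Sgs5bis had 3.54, 3.25 and 2.96 in gland and -3.02, -2.30 and -2.81 in disc. For these 3 genes, every gland array lay far above the whole animal and every disc array far below it. Sgs1, a mucin-like glue gene, read 5.49, 3.12 and 3.71 in gland, against -2.85, -1.48 and 0.01 in disc. The third disc array was thus at the level of the whole animal for Sgs1, and the difference of 5.55 (SE 0.67, adjusted p = 2.73e-05) had the widest error of the group. The new glue gene ng3 was higher by 4.78 (SE 0.57, adjusted p = 2.2e-05).

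**Figure D1:**
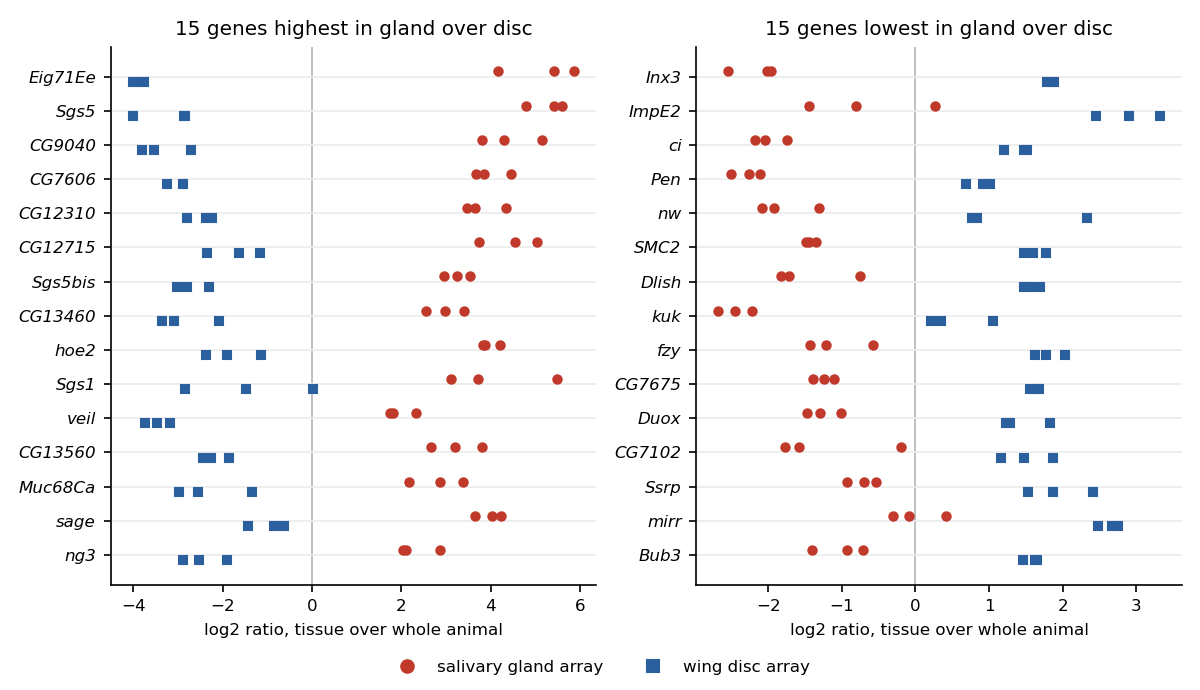
Log2 ratios over whole animal (horizontal axes) on each salivary gland array (circles) and wing disc array (squares) for the 15 genes highest and the 15 genes lowest in gland over disc among genes measured on all 6 arrays. The choice required that the arrays of the 2 tissues not overlap, and the differences run from 9.01 for Eig71Ee to -4.01 for Inx3.

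Beside the glue genes, the 15 largest positive differences held a transcription factor gene and several genes known by number only. The transcription factor was sage, a bHLH protein that acts in the gland together with the forkhead protein. It had 4.23, 4.04 and 3.64 in gland and -1.44, -0.63 and -0.85 in disc, a difference of 4.94 (SE 0.27, adjusted p = 4.27e-09). For fkh itself, which encodes that forkhead protein, the gland arrays were at 0.82, 0.44 and 0.66 and the disc arrays at -0.10, -0.18 and -1.98. The difference of 1.39 (adjusted p = 0.02) rested partly on the third disc array, without which it was 0.78 (adjusted p = 0.0782), and partly on the first gland array, without which it was 1.30 (adjusted p = 0.0649). The regulators hkb and eyg did not pass, at 0.38 (adjusted p = 0.302) and 0.32 (adjusted p = 0.588), and Scr had a value on 1 gland array only.

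The genes known by number were as sharply divided as the glue genes. CG9040 had 5.15, 3.81 and 4.29 in gland and -3.55, -3.82 and -2.72 in disc, a difference of 7.78 (SE 0.38). CG7606 was higher by 7.0 (SE 0.47), CG12310 by 6.30, CG12715 by 6.16, CG13460 by 5.82 and CG13560 by 5.42, and each had all 3 gland arrays above 2.5 and all 3 disc arrays below -1. The 2 rows of CG12310 gave 4.77 and 7.83. Muc68Ca, a mucin gene, was higher by 5.10 (SE 0.50), hoe2 by 5.78 (SE 0.37) and the nucleotidase gene veil by 5.44 (SE 0.29). In the midgut, veil stood at a mean of 1.18, close to its gland values of 2.33, 1.80 and 1.76, whereas the disc arrays read -3.48, -3.75 and -3.19.

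**Figure D2:**
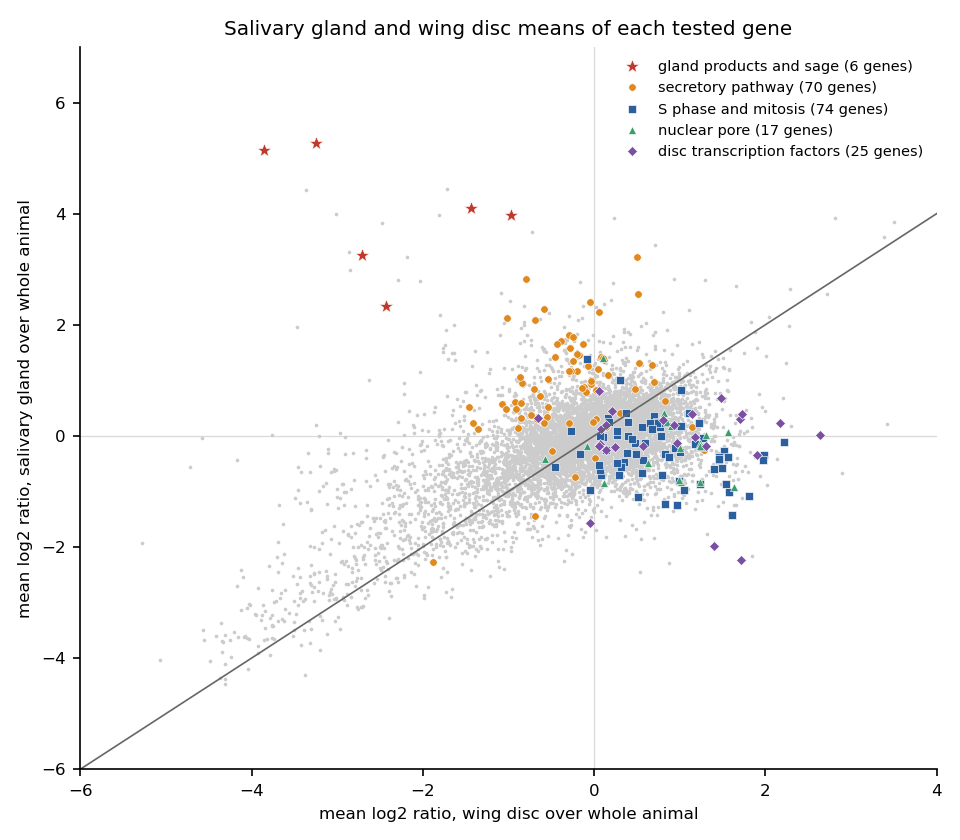
Mean log2 ratio over whole animal in salivary gland (vertical axis) and wing disc (horizontal axis) for 7583 tested genes, with 5 groups marked and the line of equal level. Gland products and sage lie above and left of the cloud, 70 secretory pathway genes mostly above the line, and genes of S phase, mitosis, nuclear pore and disc patterning mostly below it.

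The machinery that carries proteins into and through the secretory pathway was higher in the gland. Proteins enter the endoplasmic reticulum (ER) through a channel, lose their signal peptide, receive sugars, fold, and leave in coated vesicles for the Golgi. Over the lists of all these steps, 38 of 70 tested genes were higher and 3 were lower, with a median difference of 1.33. Among all named genes 8.49% were higher and 10.5% were lower. Against whole animal, 42 of the 70 were higher in gland (16.9% of all features were) and 8 in disc (18.4% of all features were).

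At the entry step, 9 of 15 genes of signal recognition, translocation and signal peptidase were higher (8.49% of named genes were) and none was lower. The 4 measured genes of the signal peptidase complex were near the top of the list. Spase25 had 3.29, 2.92 and 3.44 in gland and 0.80, 0.56 and 0.15 in disc (difference 2.71, SE 0.25, adjusted p = 2.14e-06). Spase12 was higher by 2.46, twr, the catalytic subunit, by 2.17, and Spase22-23 by 2.03. TRAM, which sits beside the channel, was higher by 2.11 and Trp1, the fly Sec62, by 1.36. For all 6 the lowest gland array was above the highest disc array.

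Inside the ER, 10 of 23 genes of N-glycosylation and folding were higher (8.49% of named genes were). Another 2 were lower (10.5% of named genes were). The largest was wol, which makes the glucose donor for N-glycans, with 3.21, 2.06 and 1.57 in gland and -0.46, -0.81 and -0.48 in disc (difference 2.86, SE 0.32). The chaperone gene Hsc70-3, the fly BiP, was higher by 2.09 (SE 0.30), the oligosaccharyl transferase subunit Ostgamma by 2.02, the disulfide isomerase Pdi by 1.97 (SE 0.54), GCS2beta, a glucosidase II subunit, by 1.80 and CaBP1, another isomerase-type protein, by 1.6. The 2 lower genes, named after their values were seen, were Alg10, a glucosyl transferase, at -1.54 (SE 0.29) and Stt3A, a catalytic subunit of the oligosaccharyl transferase, at -0.99 (SE 0.22). Without the first gland array the count of higher genes was 6 of 22, and Pdi (1.40, adjusted p = 0.0878) and CaBP1 (1.18, adjusted p = 0.0609) were among those no longer past the test. Pdi was also no longer past it without the first disc array (1.73, adjusted p = 0.0581).

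On the way to the Golgi, 12 of 17 genes of COPI and COPII coats, their cargo proteins and tethers were higher and none was lower. The share of all named genes that were higher was 8.49%. CHOp24, a p24 cargo protein, had 2.28, 1.25 and 1.45 in gland and -0.53, -0.55 and -0.23 in disc (difference 2.10, SE 0.27). Surf4, a cargo receptor, was higher by 1.93, the COPI coat gene zetaCOP by 1.88, Slh, a regulator of vesicle fusion, by 1.78, and the SNARE gene Sec22 by 1.57. Sec31, of the outer COPII coat, was higher by 1.64 (adjusted p = 0.021), but by 1.1 (adjusted p = 0.11) without the first gland array and by 1.32 (adjusted p = 0.084) without the first disc array.

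In the Golgi, mucin-type sugars are started by the Pgant enzymes, which attach the first O-linked sugar. Among 15 genes of O-glycans, sulfation and sugar nucleotide transport, 7 were higher (8.49% of named genes were). One direction apart, 1 was lower (10.5% of named genes were). Pgant6 had 3.23, 2.77 and 2.50 in gland, against -0.46, -0.76 and -1.16 in disc, a difference of 3.63 (SE 0.27, adjusted p = 1.88e-07). Pgant1 was higher by 3.15 (SE 0.39) and Pgant7 by 2.77 (SE 0.38). The family was not uniform: Pgant2, named after its value was seen, differed by 0.02 (95% interval -0.56 to 0.61). Genes of sulfate supply also passed, Papss, which makes the activated sulfate, by 1.63 and Papst2, which carries it into the Golgi, by 1.67, as did UGP, which makes UDP-glucose, by 1.86. The nucleotide sugar transporter gene frc, likewise named afterwards, was lower by 0.75 (difference -0.75, SE 0.21, adjusted p = 0.0189).

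The gland arrays differed among themselves on these genes. Of 55 secretory genes measured on all 6 arrays, the third gland array was the lowest of the gland arrays for 37 (67.3%, against 34.1% of all features) and the first was the highest for 42 (76.4%, against 30.6%). List medians were 1.56, 0.75 and 0.47 on the gland arrays and -0.39, -0.25 and -0.25 on the disc arrays. Without the first gland array 28 of 67 secretory genes were higher, and without the third gland array 46 of 68.

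**Figure D3:**
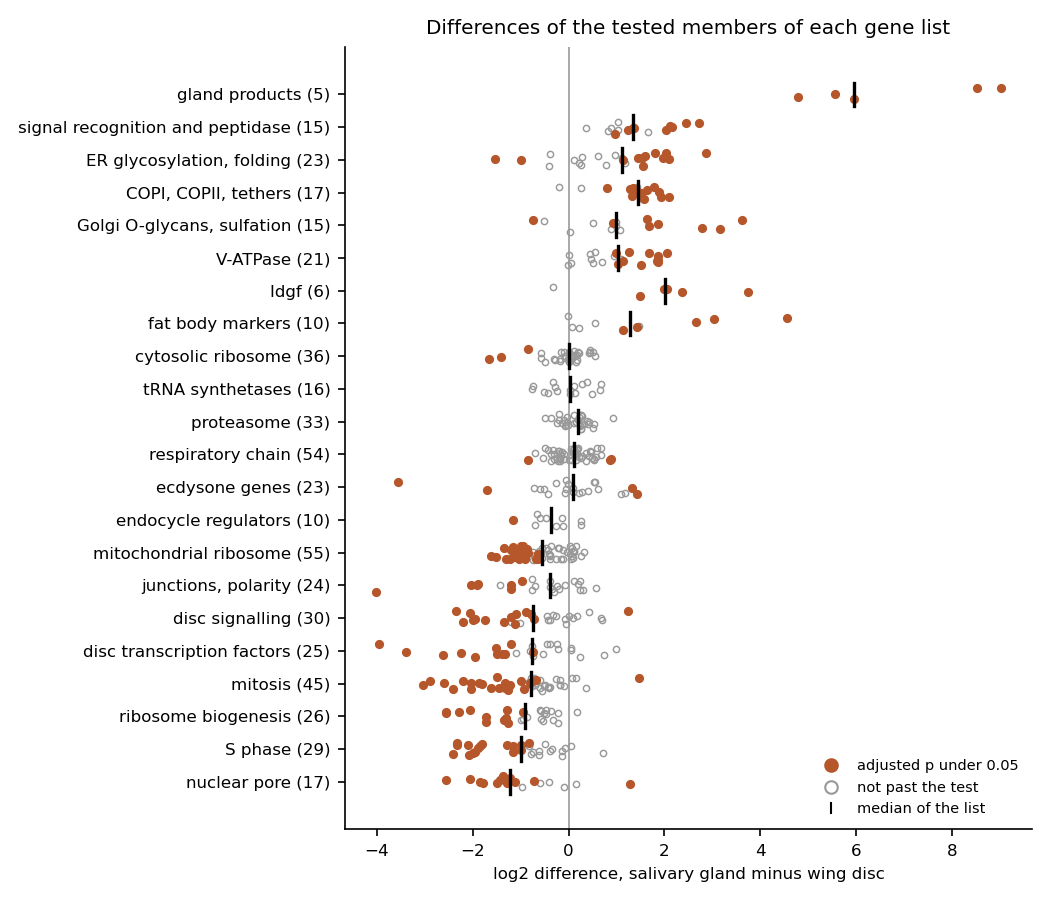
Log2 difference, salivary gland minus wing disc (horizontal axis), of each tested member of 22 gene lists, with members past the test filled and the list median as a bar. Secretory lists and V-ATPase sit right of 0, cytosolic ribosome, tRNA synthetases, proteasome and respiratory chain sit around 0, and nuclear pore, S phase, ribosome biogenesis and mitosis sit left of it.

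The vacuolar proton pump, or V-ATPase, acidifies lysosomes, the Golgi and secretory granules. Of 21 tested subunit genes, 11 were higher in the gland (8.49% of named genes were) and none was lower, with a median of 1.03. VhaAC39-1, a stalk subunit, had 0.24, -0.14 and -0.59 in gland and -2.03, -2.37 and -1.71 in disc (difference 1.87, SE 0.25, adjusted p = 5.45e-05). The proteolipid gene Vha16-1 was higher by 1.86, Vha14-1 by 1.86, VhaAC45 by 1.85 and Vha36-1 by 1.68. Gland levels lay near the whole animal and disc levels below it: against whole animal, 6 of the 21 genes were lower in gland (18.6% of all features were) and 15 in disc (20.6% of all features were). Vha55 had the largest difference, 2.05, and the least steady one, with gland arrays at -0.45, -1.49 and -2.83 and disc arrays at -3.96, -3.73 and -3.22. It passed at adjusted p = 0.0328 but not without the first or second gland array (1.48, adjusted p = 0.149, and 2.0, adjusted p = 0.0712) or the first or second disc array (1.88, adjusted p = 0.0847, and 2.0, adjusted p = 0.0788). The count of higher subunits was 7 without the first or second gland array or the third disc array and 6 without the second disc array.

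Imaginal disc growth factors are secreted, chitinase-like proteins named for their effect on disc cells in culture. Of the 6 genes, 5 were higher in the gland than in the disc (8.49% of named genes were). Idgf3 had -0.22, -0.68 and -0.42 in gland and -4.50, -4.12 and -3.90 in disc, a difference of 3.74 (SE 0.23, adjusted p = 1.66e-08). Idgf6 was higher in the gland by 2.38, Idgf5 by 2.05, Idgf2 by 1.99 and Idgf1 by 1.48, while Idgf4 differed by -0.33 (95% interval -0.87 to 0.21, adjusted p = 0.417). No member exceeded the whole animal on any gland array. In the central nervous system the means of Idgf3, Idgf6 and Idgf2 were -0.73, -1.73 and -0.91. Gland against nervous system, these genes did not pass (adjusted p = 0.453, 0.153 and 0.376). In that comparison Idgf5 and Idgf1 were higher in the gland, by 1.94 and 1.46, and Idgf4 was lower (difference -0.81).

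Fat body markers moved in the same direction as these growth factors. The fat body, the storage organ of the larva, lies against the salivary glands. Of 10 tested markers, 5 were higher in the gland (8.49% of named genes were) and none was lower. List medians were -0.41, -0.45 and -1.31 on the gland arrays and -2.44, -2.12 and -2.85 on the disc arrays. Lsp2, a storage protein gene, had 0.54, -0.22 and -0.42 in gland, against -4.68, -4.47 and -4.59 in disc (difference 4.55, SE 0.42, adjusted p = 1.87e-06). Its means in midgut and central nervous system were -4.24 and -4.28. Fbp2 was higher by 3.03, Fbp1 by 2.66, Lsd-1 by 1.42 (its rows ran from 0.55 to 1.93) and bmm by 1.13. Midgut means of Fbp2 and Fbp1 were -3.2 and -3.1. Lsd-1 had a midgut mean of -1.02, near its gland mean of -0.89, and bmm one of 1.42, above its gland mean of -0.69. Calls of bmm were lost without the first gland array (1.08, adjusted p = 0.0773), the second gland array (0.96, adjusted p = 0.0969) or the second disc array (0.88, adjusted p = 0.124). The lipid carrier gene apolpp, at -2.06, -2.61 and -3.46 in gland and -4.59, -2.84 and -5.08 in disc, did not pass (difference 1.46, adjusted p = 0.123). The part of fat body RNA in the gland values of Idgf and other secreted-protein genes was not tested.

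Many DNA replication genes were lower in the gland, and counts differed by role. Replication starts when origins are licensed, proceeds when the MCM helicase unwinds DNA, and needs a sliding clamp, polymerases and nucleotides. Of 29 tested genes of S phase, none was higher and 16 were lower (10.5% of named genes were), with a median difference of -0.99. Against whole animal, 5 of the 29 were lower in gland, a share no larger than the 18.6% of all features, and 19 were higher in disc (18.4% of all features were).

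All 5 tested genes of the MCM group were lower, and dpa, which encodes Mcm4 of the helicase ring, was not tested because it had a value on 1 gland array only (0.21, against 0.08, 0.48 and 1.05 in disc). Mcm6 had -0.88, -0.78 and -0.95 in gland and 1.90, 1.71 and 1.01 in disc, a difference of -2.41 (SE 0.24, adjusted p = 3.9e-06). Mcm3 differed by -2.32, Mcm2 by -2.10, Mcm5 by -1.79 and Mcm10, a replication factor outside the helicase ring, by -1.29. The clamp gene PCNA had -0.29, -0.67 and -0.07 in gland and 2.01, 1.77 and 2.15 in disc (difference -2.32, SE 0.31). The clamp loader genes Gnf1, RfC4 and RfC3 differed by -2.08, -2.0 and -1.16, RPA2, of the single-strand binding protein, by -1.95, and the ligase gene DNAlig1 by -1.84. Both genes of nucleotide supply were lower, RnrL, of ribonucleotide reductase, by -1.89 on the difference scale and Ts, thymidylate synthase, by -1.15. The disc arrays of these genes were above the whole animal without exception, and most gland arrays were below it.

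None of the 5 tested origin licensing genes passed. Cdc6, a loader of the helicase, had 1.21, 0.57 and 1.25 in gland and 0.81, 0.34 and -0.25 in disc (difference 0.71, 95% interval 0.09 to 1.33, adjusted p = 0.111). The other loader, dup (Cdt1), differed by -0.08 (95% interval -0.65 to 0.49), and the origin recognition genes Orc3, Orc1 and Orc4 by -0.13, -0.34 and -0.49. Cdc45, an activator of the helicase, differed by 0.04 (95% interval -0.54 to 0.63), and of the 3 GINS genes, its partners, Psf1 and Psf2 did not pass while Sld5 was lower (difference -0.99). Of 5 polymerase and primase genes only PolA1 was lower, at -1.0 (SE 0.31, adjusted p = 0.0321). The grouping by role was made with the values known, and the intervals of the licensing genes and Cdc45 include differences of log2 0.5 or more.

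**Figure D4:**
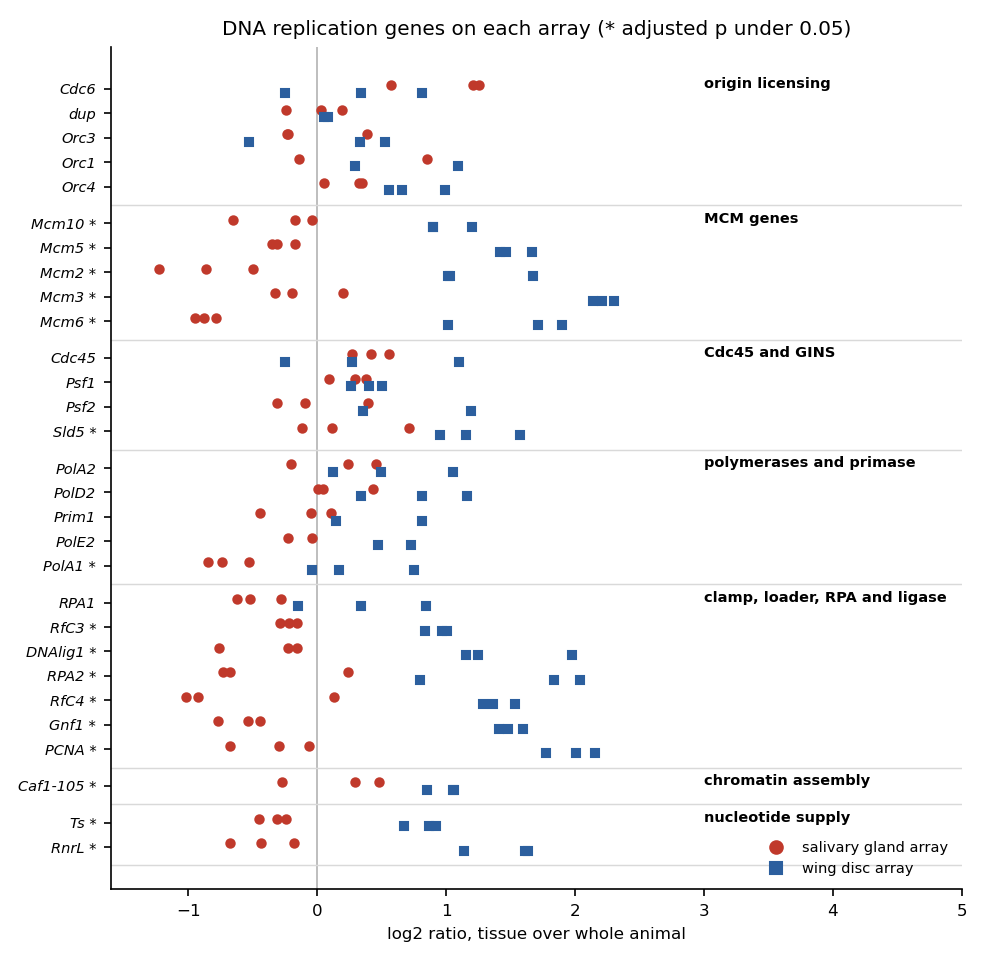
Log2 ratio over whole animal (horizontal axis) of 29 DNA replication genes on each salivary gland array (circles) and wing disc array (squares), grouped by role. The tissues are apart for the 5 tested MCM group genes and PCNA, whereas gland and disc arrays intermingle for Cdc6, dup, Orc3 and Cdc45.

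Genes of mitosis, which gland cells do not enter, were also lower in the gland. Of 45 tested genes, 21 were lower (10.5% of named genes were) and 1 was higher (8.49% of named genes were). The median was -0.78, and 25 of the 45 were higher in disc than in the whole animal (18.4% of all features were). SMC2, a core subunit of condensin, had -1.44, -1.35 and -1.49 in gland and 1.6, 1.77 and 1.48 in disc, a difference of -3.04 (SE 0.29, adjusted p = 3.13e-06). Cap-D2, also of condensin, differed by -2.41. The gene fzy, the fly Cdc20, which starts anaphase, had -1.44, -1.22 and -0.57 in gland and 1.63, 2.03 and 1.77 in disc (difference -2.89, SE 0.33). Spindle checkpoint genes followed, Bub3 at -2.59, mad2 at -1.31 and Mad1 at -1.22. The inner centromere kinase aurB and its partner Incenp differed by -1.27 and -2.20, and the spindle motor genes sub, Klp61F and ncd by -2.04, -2.03 and -1.62.

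Other mitotic genes differed less. Among 6 genes of kinetochore and centromere, Spc25 alone was lower (difference -1.80), and Ndc80 and Nuf2, of the same complex, were at -0.42 and -0.49 without passing. CycB, the mitotic cyclin gene, had -0.90, -0.71 and -0.51 in gland and 0.14 and 0.01 on the 2 disc arrays that measured it (difference -0.78, adjusted p = 0.0788). The 1 higher gene was Septin2, a cytoskeletal GTPase gene, with 2.11, 1.06 and 0.96 in gland and -0.31, 0.00 and 0.05 in disc (difference 1.46, SE 0.28, adjusted p = 0.00133). Septin1 differed by -0.17.

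Among regulators of the endocycle only Rbf, the fly retinoblastoma gene, passed of 10 tested, a count near the 10.5% of named genes that were lower. It had 0.18, 0.17 and -0.37 in gland and 1.47, 0.88 and 1.12 in disc (difference -1.16, SE 0.24, adjusted p = 0.00378). CycE, the cyclin that drives entry into S phase, differed by -0.12 (95% interval -0.72 to 0.48), the transcription factor E2f1 by -0.14 (-0.70 to 0.42), and fzr, which holds off mitotic cyclins in endocycles, by 0.26 (-0.38 to 0.90). SuUR, which keeps parts of polytene chromosomes underreplicated, differed by -0.25 (-0.75 to 0.24).

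The midgut, another larval tissue with polyploid cells, and the central nervous system, which holds dividing cells, were set beside these tissues. The comparison of gland with nervous system shares the gland arrays with the main one, and that of midgut with disc shares the disc arrays. Median levels of the S phase genes were -0.13 in gland, -0.48 in midgut, 0.82 in disc and 0.79 in nervous system. For mitosis they were -0.32 in gland, -0.26 in midgut, 0.65 in disc and 0.54 in nervous system. Gland against nervous system, 14 of 26 S phase genes and 24 of 42 mitosis genes were lower (11.5% of all features were), and midgut against disc, 18 of 29 and 21 of 44 were lower (12.1% of all features were). None of these genes was higher in either comparison. Secretory genes had medians of 0.90 in gland, -0.56 in midgut, -0.26 in disc and -0.31 in nervous system. Gland against nervous system, 42 of 69 secretory genes were higher (7.73% of all features were), and midgut against disc, 4 of 70 were higher (12.6% of all features were) and 13 were lower. The V-ATPase genes were highest in the midgut, with medians of -0.16 in gland, 0.11 in midgut, -1.19 in disc and -1.08 in nervous system.

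**Figure D5:**
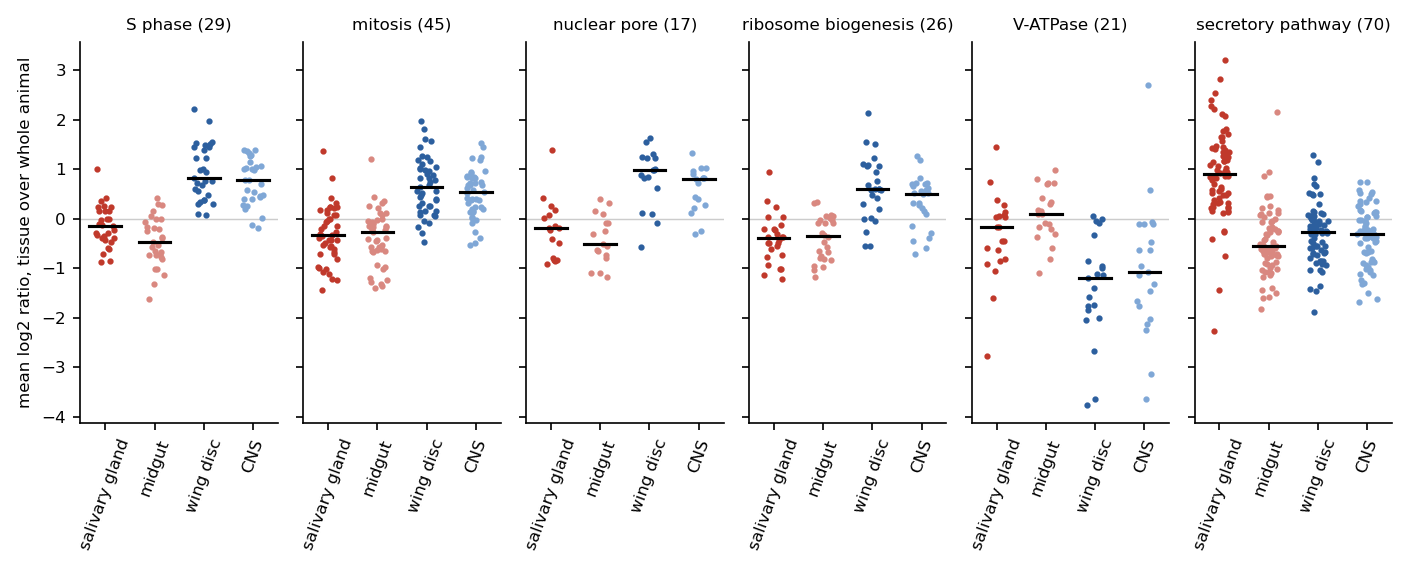
Mean log2 ratio over whole animal (vertical axis) of each member of 6 gene lists in salivary gland, midgut, wing disc and central nervous system (CNS), with the median as a bar. S phase, mitosis, nuclear pore and ribosome biogenesis genes are lower in gland and midgut than in disc and nervous system, and secretory genes have their highest median in the gland.

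Nuclear pore genes had the lowest median of all the lists, -1.22. The pore is a ring built of many kinds of protein through which proteins and RNA pass. Of 17 tested genes, 11 were lower in the gland (10.5% of named genes were) and 1 was higher (8.49% of named genes were). Nup93-1, of the inner ring, had -0.87, -0.87 and -1.0 in gland and 1.64, 1.57 and 1.70 in disc, a difference of -2.55 (SE 0.27, adjusted p = 7.12e-06). The channel protein gene Nup62 differed by -2.06, Nup154 by -1.85, Nup358, of the cytoplasmic filaments, by -1.78, Nup214 by -1.49 and Nup43 by -1.43. The higher gene, Sec13, is also a COPII coat gene and was at 1.29. Genes of import and of the nuclear envelope were among the 15 lowest of all. Pen, an importin alpha that carries proteins through the pore, had -2.51, -2.11 and -2.26 in gland and 0.69, 1.02 and 0.92 in disc (difference -3.17, SE 0.28). The lamina gene kuk differed by -2.99 (SE 0.39), and Ssrp, of the histone chaperone FACT, by -2.65 (SE 0.23).

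Genes that build ribosomes were lower in the gland as a list, and cytosolic ribosomal protein genes had a median near 0. Of 26 tested genes of ribosome assembly and RNA polymerase I, 11 were lower (10.5% of named genes were) and none was higher. Their median was -0.90. The RNA-binding protein gene hoip had -1.25, -1.02 and -0.75 in gland and 1.56, 1.99 and 1.1 in disc (difference -2.56, SE 0.29), and Nop60B, the pseudouridine synthase of the nucleolus, -0.66, -0.45 and -0.14 against 2.19, 2.48 and 1.73 in disc (difference -2.55, SE 0.27). Nnp-1 differed by -2.28 (n = 2 arrays per tissue), Fib, which encodes fibrillarin, by -2.05, and Polr1B, a polymerase I subunit, by -1.73. Among 36 genes with cytosolic ribosomal protein names the median was 0.01. The 3 that passed, all lower (10.5% of named genes were), were RpL7-like, RpL24-like and RpLP0-like (-1.66, -1.40 and -0.86). They are relatives of ribosomal proteins and not the proteins of the ribosome. Of 55 mitochondrial ribosomal protein genes, 20 were lower (10.5% of named genes were) and none was higher (median -0.55). The lowest were mRpS30 at -1.61 and mRpL15 at -1.51. That count was 10 without the first gland array and 11 of 43 and 13 of 42 without the first and second disc array.

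Other housekeeping lists had medians near 0. Of 33 proteasome genes 0 passed limma's test and 0 had an unadjusted p under 0.05, with a median of 0.19. Of 16 tRNA synthetase genes 0 passed and 1 had such an unadjusted p, with a median of 0.03. Among 54 genes of the respiratory chain and ATP synthase, 2 were higher and 1 was lower, with a median of 0.10. Among 36 translation factors 2 were lower, eIF6 at -1.09 and eIF1 at -0.97. The shares over all named genes were 8.49% higher and 10.5% lower.

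Transcription factors of wing disc patterning were lower in the gland for 11 of 25 tested genes (10.5% of named genes were). None was higher, and the median was -0.75. The gene ci, the transcription factor of Hedgehog signalling, had -2.04, -1.74 and -2.18 in gland and 1.48, 1.51 and 1.20 in disc, a difference of -3.39 (SE 0.37, adjusted p = 9.16e-06). Its midgut mean was -3.50. zfh2, a homeodomain factor of the proximal wing, had -2.27 and -2.19 on 2 gland arrays and 1.45, 1.54 and 2.16 in disc (difference -3.95, SE 0.33). mirr, an Iroquois homeodomain factor, had -0.31, 0.42 and -0.09 in gland and 2.75, 2.68 and 2.47 in disc (difference -2.63, SE 0.25). Sox15 differed by -1.95 and knrl by -2.24 (n = 2 gland arrays). The wing selector gene vg had 0.23, -0.02 and 0.70 in gland and 1.55, 1.87 and 1.69 in disc (difference -1.40, SE 0.34, adjusted p = 0.0129). For tsh, at -1.52, the call was lost without the first gland array (-1.31, adjusted p = 0.103) or the third disc array (-1.09, adjusted p = 0.136). The count for the list was 6 without the first gland array and 7 without the first disc array, with 19 and 20 genes tested.

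Signalling genes of the disc were lower for 13 of 30 (10.5% of named genes were) and higher for 1 (8.49% of named genes were). Ligands were represented by spi, an EGF receptor ligand, with -1.36, -1.53 and -1.94 in gland and -0.04, 0.52 and 0.87 in disc (difference -2.05, SE 0.29). Among receptors and pathway proteins, smo, of Hedgehog signalling, differed by -1.96 and kek1, an inhibitor of the EGF receptor, by -1.74. Of 7 tested genes of the E(spl) complex, which holds Notch targets, 5 were lower, with E(spl)m7-HLH at -2.35 and E(spl)mbeta-HLH at -2.0 (n = 2 gland arrays each) and E(spl)malpha-BFM at -2.19. The other two, named after their values were seen, did not pass: E(spl)mdelta-HLH was at -0.77 (adjusted p = 0.0938) and E(spl)m5-HLH at 0.67 (adjusted p = 0.226). The Notch ligand gene Delta, listed under an older symbol and so outside the list and named after its value was seen, had -0.76, 0.06 and -1.19 in gland and 1.54, 1.5 and 2.15 in disc (difference -2.36, SE 0.31). The single higher gene was Dad, which encodes an inhibitory SMAD of BMP signalling, with 1.43, 1.09 and 1.71 in gland and 0.28, 0.33 and -0.11 in disc (difference 1.24, SE 0.25, adjusted p = 0.00218). Without the first gland array 6 of 25 signalling genes were lower, and without the third 8 of 26.

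The junction gene Inx3 had the most negative difference among named genes. It encodes an innexin of gap junctions and had -2.01, -1.96 and -2.54 in gland and 1.85, 1.88 and 1.79 in disc, a difference of -4.01 (SE 0.29, adjusted p = 1.18e-07). The other innexins that passed were Inx2 at -2.02 and ogre at -1.89 (its rows gave -2.44 and -1.35). Inx7, Inx5 and zpg, named after their values were seen, did not pass, at -0.30, -0.40 and 0.11 (adjusted p = 0.783, 0.42 and 0.842). Of 24 genes of junctions and apical polarity, 7 were lower (10.5% of named genes were) and none was higher (8.49% of named genes were). Cont and sinu, of septate junctions, differed by -1.91 and -1.19 and p120ctn, of adherens junctions, by -1.21. Without the third gland array the count was 4. Cont was then at -1.25 (adjusted p = 0.0539), and at -1.70 (adjusted p = 0.0503) without the third disc array. The call of sinu was lost without the second or the third array of either tissue (adjusted p between 0.069 and 0.163).

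Among 14 Fat, Hippo and planar polarity genes, 3 were lower (10.5% of named genes were). The others did not pass, and the median difference of the list was -0.28. Dlish, an SH3 protein downstream of Fat, had -1.72, -0.75 and -1.82 in gland and 1.56, 1.47 and 1.69 in disc (difference -3.0, SE 0.32). lft, a partner of Fat and Dachsous, and dgo, of planar polarity, differed by -2.41 and -2.07. Further genes among the 15 lowest were nw, a C-type lectin gene named for a narrow wing, at -3.09 (SE 0.42), Duox, a dual oxidase, at -2.71 (SE 0.35), and CG7675 and CG7102 at -2.88 and -2.69.

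Of 23 tested genes of the response to ecdysone, the hormone whose pulse ends larval life, 2 were higher (8.70%, against 8.49% of named genes) and 2 were lower (10.5% of named genes were), and 19 did not pass. These shares lie near those of all named genes. ImpE2, an ecdysone-inducible gene of discs, had -0.81, -1.45 and 0.26 in gland and 2.90, 3.32 and 2.46 in disc (difference -3.56, SE 0.41, adjusted p = 1.95e-05), and ImpE3 differed by -1.69 (n = 2 gland arrays). The nuclear receptor gene Hr78 was higher by 1.44 (SE 0.26) and Cth, a cystathionine gamma-lyase gene, by 1.31 (SE 0.25). Of 25 genes of autophagy and cell death 2 were higher (8.0%, near the 8.49% of named genes), Buffy, of the Bcl-2 family, by 2.54 (n = 2 disc arrays) and ref(2)P, an autophagy receptor, by 2.31. Atg14 was lower (difference -1.03). Of 11 heat shock genes 1 was higher, Hsp68 (8.49% of named genes were), and 1 was lower, Hsc70-4 (10.5% of named genes were). These counts too lie near the shares of all named genes. Hsc70-4 had a difference of -0.83 (SE 0.21, adjusted p = 0.0105). Hsp68 was above whole animal in both tissues, as were Hsp22, Hsp26, Hsp27 and DnaJ-1, none of which passed and which were named after their values were seen. The means of the same genes were also above it in epidermis with muscle, midgut and central nervous system, for Hsp68 at 3.96, 2.91 and 3.18. Hsp68 had 4.14, 3.73 and 3.89 in gland and 3.0, 2.96 and 2.49 in disc. The Hsp68 difference of 1.1 (adjusted p = 0.0266) turned to -0.26 with quantile normalization and was lost without the first or the third gland array or the third disc array (adjusted p 0.0523 to 0.102).

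Markers of other cell types passed the test in smaller numbers than the 5 of fat body, over lists of 4 to 33 tested genes. Of all named genes, 8.49% were higher and 10.5% were lower. Of 11 blood cell markers 1, the collagen gene vkg, was higher (difference 1.01, but 0.72 with adjusted p = 0.0947 without the second disc array), and Hml, a defining marker, differed by 0.01. Of 13 muscle markers only Strn-Mlck was higher, with 2.50, 1.65 and 1.84 in gland and -0.83 and -0.82 in disc (difference 2.82, SE 0.30). Its mean on the arrays of epidermis with muscle was 0.32, below each of its gland values. The median difference of the muscle markers was 0.26. Prm, Act87E and TpnC73F were at 0.98, 0.76 and 0.75 without passing (adjusted p = 0.197, 0.294 and 0.129). The genes bt and Mlc1 had the lowest differences of the list, 0.00 and -0.04, and lay far below the whole animal in both tissues. Mlc1 alone had a negative difference. Of 33 midgut enzyme markers 1, Jon25Bi, passed (difference 1.22, adjusted p = 0.04, not past the test without any 1 of 5 arrays), with list medians of -3.03 in gland and -3.31 in disc. The median of the differences of these midgut markers was 0.54. None of 4 markers of adult muscle precursors and none of 8 of neurons and glia passed limma's test, and 0 and 2 of them had an unadjusted p under 0.05. Among 8 tracheal markers uif and verm were lower (differences -2.09 and -1.72, the 5 rows of verm running from -2.80 to 0.01) and peb was higher (0.83). The calls of uif were lost without the first or the third gland array or the third disc array (adjusted p 0.0609 to 0.0754), and those of peb without either of the first arrays, the second gland array or the third disc array. Disc tissue carries tracheal tubes, and their part in the disc values was not tested.

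The lists of cytochrome P450 and cuticle protein genes were chosen as large families without a fixed tissue. Of 58 tested P450 genes 6 were higher in the gland (10.3%, near the 8.49% of named genes) and none was lower (10.5% of named genes were), led by Cyp12e1 with 0.01, -0.24 and 0.17 in gland and -3.08, -3.38 and -2.25 in disc (difference 2.89, SE 0.34). Cyp4ac1 and Cyp6d2 were higher by 1.89 and 1.69. Of 59 cuticle protein genes 5 were higher and 1 was lower, which are shares of 8.47% and 1.69%, against 8.49% and 10.5% of named genes.

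Called genes lay on different sides of the whole animal. Sides were read from the test of each tissue against whole animal, so a gene counted for 1 tissue only did not pass on the opposite side in the other. Of the 644 named genes higher in the gland, 105 passed as both above the whole animal in gland and below it in disc. Another 199 passed as above it in gland only, 328 as below it in disc only and 12 as neither. Of the 799 lower in the gland, 184 passed as below in gland and above in disc, 188 as below in gland only, 406 as above in disc only and 21 as neither. Tissue RNA was in the same dye on every array, so an effect of the dye on a ratio to whole animal cannot be told apart from the tissue.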

How the data were processed

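Transcripts of salivary gland and wing disc were measured on 2-colour arrays, 3 per tissue, within a series of 15 arrays of 5 tissues. Per the labels, RNA was amplified by in vitro transcription and no dyes were swapped. The authors deposited log2 ratios of tissue over whole animal, a scale read from the values: on every array 100% of them were the log2 of whole steps, to within 0.02 steps, less 1 constant. The sources used here name no scanner, background correction, normalization, genome build or reason for empty cells, so signal over background is unknown. Sequences were not used here, and gene positions were used only to find adjacent genes.

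Arrays were median-centred one by one. Of 14051 measured rows, 10817 had 1 gene in the array annotation, 10813 of which matched a current gene record, and rows of 1 gene were averaged. Of 793 genes with several rows, 94 had rows over log2 1 apart in the comparison. limma 3.58.1 (R 4.3.3) was fitted to all 15 arrays with 1 mean per tissue, moderated variances and Benjamini-Hochberg adjustment over all features tested, with 95% intervals from the same fit. Tables and plots used python 3.11.15, pandas 2.3.3 and matplotlib 3.10.9.

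The tissues, the members, the 35 gene lists and the alternatives were chosen with earlier results of these data known. After the values were seen, tim, P5cr and Cyp1 were removed from the lists as mismatched names, of which Cyp1 alone had passed the test. Named genes were the 15 highest and 15 lowest among genes on all 6 arrays, past the test and without overlap, up to 6 members per list past the test with the largest differences, and any measured member of the gland, cell cycle, Idgf and marker lists. P-values measure the spread between samples, and the spread of the whole animal reference is not in them. Replicate numbers were not treated as pairs.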

Additional observations from a re-analysis of the deposited data

How the results depend on the processing

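The count of features past the test in gland against disc, 1797, was 1535 to 1920 under the other scalings, fits and feature sets, 1338 with a minimum difference of log2 1, and 1244 to 1637 without 1 array. The share of higher genes among the calls was 45.2%, against 38.7% without centring and 39.6% with quantile normalization, but 50.4% (912 higher, 897 lower) when arrays were centred on features measured on all 6, so which direction held more calls depended on the centring. Replicate numbers did not pair the samples (correlations of deviations of equal numbers were -0.215, 0.030 and -0.433 over 4540 features). Those of unequal numbers ran from -0.310 to 0.421, the highest for the third gland array with the first disc array. With the replicate number as a block 1796 features passed. For gland against nervous system the block gave 1909 calls and for midgut against disc 2527, compared with 1893 and 2487 without it. Gland against whole animal gave 3979 calls with 1893 higher, but 2639 with 982 higher among features measured on all 6 arrays, of which fewer were tested. On those features 7 of 15 disc transcription factors were lower. V-ATPase genes higher in the gland numbered 7 with quantile normalization and 7 with a common spread, and mitochondrial ribosomal genes lower 12 with the minimum difference. Without 1 array, higher counts were 6 to 13 for ER genes and 6 to 11 for V-ATPase, and lower counts 6 to 11 for disc transcription factors, 6 to 12 for disc signalling, 4 to 8 for junctions and 10 to 19 for mitochondrial ribosome. The causes were not tested. Of 150 named genes that passed, 119 did so under each of 15 alternatives that could give a value, 31 lost the call under at least 1, and Hsp68 changed sign, to -0.26 with quantile normalization. Separate rows were tested for the overall count only. Medians of the gland product, secretory, V-ATPase, Idgf, S phase, mitosis, nuclear pore, ribosome biogenesis and disc lists kept their sign under all of these alternatives.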

Other observations

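Several of the genes far higher in the gland lie next to each other. Of 47 named genes higher by at least log2 3, 46 had a place in the RefSeq gene table (Release 6 plus ISO1 MT), and 9 of them formed 5 pairs of adjacent protein-coding genes, while 4480 adjacent pairs were tested in both members. The glue gene Sgs5 had Sgs5bis on one side and CG7606 on the other (differences 8.51, 5.96 and 7.0). Sgs1 stood beside hoe2 (5.55 and 5.78), CG9040 beside CG17362 (7.78 and 3.38), and CG12310 beside CG18581 (6.30 and 3.69). CG17362 and CG18581 were picked for their position after the values were seen. Among 85 genes lower by at least log2 2, Bub3 and Cap-D2 were the 1 adjacent pair (-2.59 and -2.41). Whether the array's probes of adjacent genes share sequence was not tested.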
